A study of Mus musculus with 9 samples.

Results

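Kruppel-like factors (KLFs) are DNA-binding proteins that recognise CACCC and related GC-rich boxes through zinc fingers at their carboxyl end. Some mainly switch genes on, others recruit the SIN3 or CtBP corepressors and switch genes off, and several are made within minutes to hours of a growth factor, stress or hormone signal. In blood cells they are known for roles in quiescence, migration and the choice between lineages. The members described here are the 30 probe sets, of 45037 on the array, whose annotation names Klf2, Klf3, Klf4, Klf6, Klf7, Klf9, Klf10 or Klf13 alone. Those are 8 genes of the 18193 named on the array. Klf2 and Klf10 had 1 probe set each, Klf4 had 2, Klf13 had 3 and Klf7 had 4. Klf6 had 5, and Klf3 and Klf9 had 7 each. Probe sets of a gene are not independent of each other, though they need not measure all the same transcripts.

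RNA came from bone marrow cells sorted as CD45.1+LKS+ from C57BL/6 mice of 8 weeks, LKS+ being the lineage-negative, Kit-positive, Sca-1-positive fraction that holds blood stem and early progenitor cells. There were 3 arrays from control mice, 3 from leukemic mice at day 7 and 3 from leukemic mice at day 14, on Affymetrix Mouse Genome 430 2.0 arrays. The series compares normal stem and progenitor cells at different stages of acute myeloid leukemia. How the leukemia was produced is not given in the sources used here, and the controls carry no time label, so leukemia and elapsed time cannot be told apart. The labels call the replicates of a group biological, but whether they are separate animals or separate sorts is not stated. The p-values cover the spread among these arrays. In sorted RNA, more cells of a type and more RNA per cell cannot be told apart. Values are normalized intensities on a linear scale, which can be set against each other for 1 probe set across arrays but not between probe sets.

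Of the 9 markers listed for LKS+ cells, 7 had a probe set with their symbol alone, and all 7 lay above the 40th percentile of every array. Kit, the stem cell factor receptor, measured 1720 in control, 1453 at day 7 and 1696 at day 14; of the 7, Procr fell at day 14 (log2 change -0.43) and the rest did not pass at either time. Ly6a, which encodes Sca-1, is not analysed here. The median intensity of an array lay between 23.4 and 24.2. Its 75th percentile was 115 to 119 at day 14, lower than the 127 to 130.2 of the other 6 arrays. Of 27665 probe sets tested, 44.4% differed between day 14 and control and 3.39% between day 7 and control (limma, Benjamini-Hochberg adjusted p below 0.05).

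Sequence just before the start of transcription was found in RefSeq for 7 of the 8 genes, as GRCm38.p6 windows of 250 bases. The windows below are shown for 4 genes that were higher at day 14 and carry the letters TGACG, and for Klf3, which had no higher probe set. They are written 5′ to 3′ on the gene's strand and end at the base before the annotated start. Capitals mark, on either strand, the KLF core CACCC, the cyclic AMP element core TGACG, the MEF2 box (CTA, then TAG after 4 further bases) and the promoter element CCAAT.
Klf2, chr8:72318812-72319061, plus strand: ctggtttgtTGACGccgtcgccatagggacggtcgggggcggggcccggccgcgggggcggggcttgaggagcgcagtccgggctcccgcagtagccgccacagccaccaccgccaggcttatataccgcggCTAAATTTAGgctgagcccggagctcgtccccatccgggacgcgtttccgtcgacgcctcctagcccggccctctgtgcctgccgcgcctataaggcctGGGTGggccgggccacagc
Klf4, chr4:55532476-55532725, minus strand: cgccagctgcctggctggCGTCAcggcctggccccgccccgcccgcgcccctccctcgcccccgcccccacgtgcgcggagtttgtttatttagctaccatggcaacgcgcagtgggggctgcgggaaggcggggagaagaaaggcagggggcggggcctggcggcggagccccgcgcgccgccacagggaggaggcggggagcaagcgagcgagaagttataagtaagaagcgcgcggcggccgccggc
Klf9, chr19:23140976-23141225, plus strand: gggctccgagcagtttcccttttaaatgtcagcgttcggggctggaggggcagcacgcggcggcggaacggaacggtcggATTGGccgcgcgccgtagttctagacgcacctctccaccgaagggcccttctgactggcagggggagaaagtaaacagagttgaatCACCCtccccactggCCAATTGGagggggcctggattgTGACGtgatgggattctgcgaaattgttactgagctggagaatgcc
Klf13, chr7:63938916-63939165, minus strand: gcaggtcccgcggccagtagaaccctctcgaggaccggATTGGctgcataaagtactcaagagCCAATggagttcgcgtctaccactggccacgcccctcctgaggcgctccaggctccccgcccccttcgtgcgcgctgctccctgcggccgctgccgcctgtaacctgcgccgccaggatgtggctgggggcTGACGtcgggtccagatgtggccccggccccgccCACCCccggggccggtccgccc
Klf3, chr5:64803271-64803520, plus strand: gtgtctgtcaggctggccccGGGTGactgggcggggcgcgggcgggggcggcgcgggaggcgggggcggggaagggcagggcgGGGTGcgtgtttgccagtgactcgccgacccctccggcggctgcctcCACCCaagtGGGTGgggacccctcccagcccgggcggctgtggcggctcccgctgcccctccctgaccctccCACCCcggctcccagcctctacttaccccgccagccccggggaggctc

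The letters CACCC, the core that KLF proteins themselves bind, occurred in 5 of the 7 windows and in 52.0% of all 32851 windows of that length. Klf3 held 5 matches, Klf7 held 3, and Klf2, Klf9 and Klf13 held 1 each. TGACG, the core of the cyclic AMP response element, occurred in Klf2, Klf4, Klf9 and Klf13, 4 of 7 windows, against 17.8% of all windows. In Klf9 it began 46 bases before the start, in Klf13 56 bases, in Klf4 232 bases and in Klf2 241 bases. For the MEF2 box, any 4 bases were allowed between CTA and TAG. This loose pattern occurred in the Klf2 window alone, as CTAAATTTAG at 118 bases before the start, and in 3.2% of all windows. CCAAT occurred in the windows of Klf6, Klf9 and Klf13 and in 33.8% of all windows, and GGGCGG, the GC box, in 6 of 7 and in 32.7%. The CArG box of serum response factor had 0 matches in the 7 windows and occurred in 1.47% of all. All were searched on both strands. In Klf3 and Klf13 a CACCC match shares an end base with a GGGCGG match, and in Klf9 a pair of CCAAT matches overlap. A match is a description of letters, not a measured binding site. The motifs were chosen with the sequences in view, so the shares are a description only.

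The KLF genes other than Klf3 were higher at day 14. Against control, 22 of the 30 probe sets rose, 3 fell and 5 did not pass the test, where 17% of all probe sets tested rose and 27.5% fell. The day 14 arrays lay above all controls for 22 of the 30 and below them for 4, against 21% and 32% of all probe sets. The F-test over the 3 groups called 24 of 30, against 47.4% of all. The 22 belong to Klf2, Klf4, Klf6, Klf7, Klf9, Klf10 and Klf13, and the 3 that fell are all of Klf3. The median log2 change of the 30 was 1.21, against -0.04 over all probe sets tested. With quantile normalization 22 rose and 2 fell, and with arrays set to the same 75th percentile 23 rose and 1 fell. All 30 passed the filter on dim probe sets: 27 lay above the 40th percentile of all 9 arrays, 2 of 8 arrays, and 1, of Klf9, only of the 3 day 14 arrays. Without that last probe set, 21 of 29 rose and 3 fell, with a median of 1.22.

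**Figure D1:**
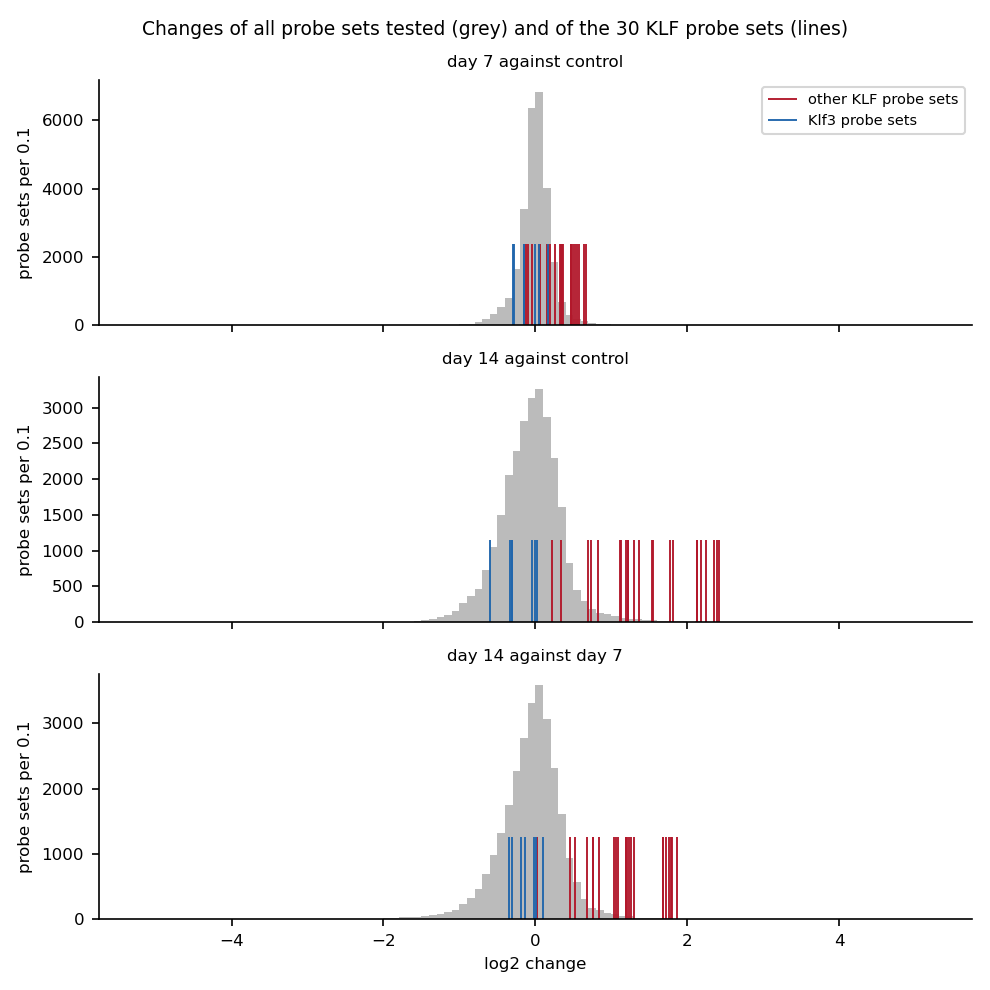
Number of probe sets per 0.1 of log2 change, for all 27665 probe sets tested (grey bars), with each KLF probe set as a line (blue for Klf3, red for the other genes), in 3 comparisons. In both comparisons with day 14 most red lines lie at the right edge of the grey distribution, while the Klf3 lines lie within it.

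Among the KLFs known mainly as activators, Klf4 and Klf2 had large changes. Klf4, one of the factors that reprogram cells to pluripotency and a driver of monocyte differentiation, measured 289.7, 170.9 and 311.1 in the 3 control arrays on probe set 1417394_at. The day 7 arrays read 281.2, 306.9 and 368.7, and the day 14 arrays 1125, 1267 and 903.9. The day 7 arrays overlapped the controls, and the day 14 arrays lay above both. The rise at day 14 over control was 4.37-fold (log2 change 2.13, SE 0.22, adjusted p 8.9e-05). The second Klf4 probe set, 1417395_at, gave the same fold, 4.38, and the readings of both correlated with r = 0.9995 over the 9 arrays. Day 7 against control was 0.35 with a 95% interval of -0.13 to 0.83, so the day 7 change was not resolved. Control replicate 2 was the lowest control array for both probe sets, and without it the day 14 change was 1.86 for each.

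Klf2 keeps lymphocytes quiescent and controls their trafficking, and in endothelium it answers to blood flow. Its single probe set read 370.7, 260.3 and 412.6 in control, 502.5, 481.7 and 550 at day 7, and 1184, 1621 and 908.3 at day 14. The 3 groups did not overlap, and control replicate 2 was again the lowest. The day 14 arrays were 3.52-fold above control (log2 change 1.82, SE 0.21, adjusted p 0.00018) and 2.36-fold above day 7 (adjusted p 0.0012). Day 7 was 1.49-fold above control, with an adjusted p of 0.15 and an interval on the log2 scale of 0.11 to 1.05. The spread was wide at day 14, with an SD of 359.5 around a mean of 1238 (n = 3).

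**Figure D2:**
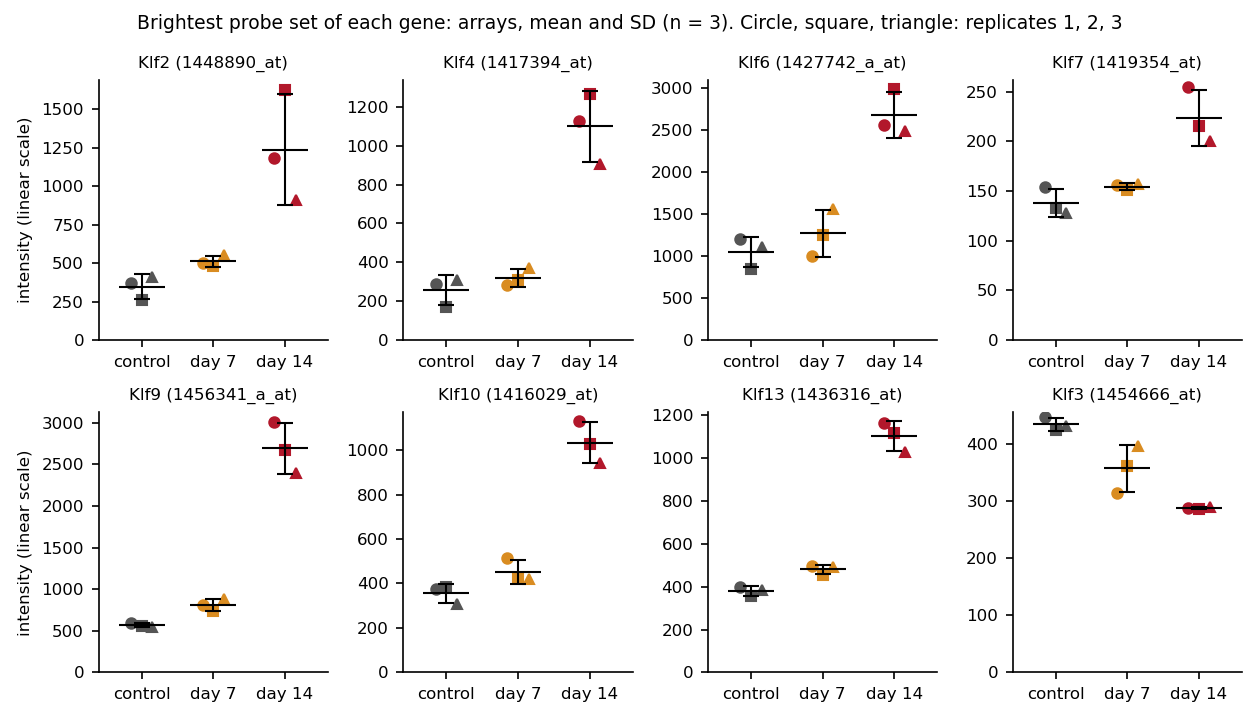
Intensity on a linear scale of the brightest probe set of each of the 8 genes, by group; points are arrays, with a symbol for each replicate number, and bars are the mean and SD (n = 3). In the panels of Klf2, Klf9, Klf10 and Klf13 the day 7 arrays lie above all controls and the day 14 arrays above all others, while in that of Klf3 the order runs downwards.

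Klf6, a broadly expressed factor made early after injury or growth signals, was measured by 5 probe sets, and all 5 rose at day 14, by log2 changes of 1.12 to 1.36. The brightest, 1427742_a_at, read 1201, 851.4 and 1106 in control, 1004, 1253 and 1557 at day 7 and 2565, 2989 and 2489 at day 14. The day 14 arrays lay above the other 6, a 2.56-fold rise over control (adjusted p 0.00025). At day 7 the 5 probe sets ranged from -0.09 to 0.26, on both sides of 0, and 0 of them passed; none had an unadjusted p below 0.05 with limma. Control replicate 2 was the lowest control array for Klf6 too, and without it the brightest probe set's day 14 change was 1.21. Of the 5, 1447448_s_at and 1459718_x_at carry suffixes for probes that can bind other transcripts.

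Klf7, best known from the developing nervous system, had the smallest day 14 changes of the genes that rose. Its 4 probe sets rose by 0.33 to 0.82. The probe set with the largest change, 1449439_at, read 91.72, 79.36 and 75.01 in control, 81.6, 84.1 and 90.6 at day 7, and 152.4, 142.2 and 139.5 at day 14. Control and day 7 overlapped, and day 14 stood 1.77-fold above control (log2 change 0.82, SE 0.09, adjusted p 0.00011). The fourth Klf7 probe set, 1419356_at, rose by 0.33 (adjusted p 0.031). That call was lost without control replicate 2, control replicate 3, day 14 replicate 2 or day 14 replicate 3, with values of 0.25 to 0.32. It was also lost without the filter on dim probe sets.

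Klf9, Klf10 and Klf13 are known to repress through SIN3. Of these, Klf9 and Klf13 were called higher at day 7 and Klf10 did not pass. The day 7 log2 change of Klf10, 0.35, was close to the 0.34 of the Klf13 probe set 1436316_at, so these calls do not set the genes apart. Klf9, a target of glucocorticoid and thyroid hormone receptors, had 6 probe sets above the 40th percentile in all groups. Of these 6, all rose at day 14 and 5 at day 7. The 5 day 7 calls were all lost without the filter on dim probe sets, and again without day 7 replicate 3. The brightest, 1456341_a_at, read 593.1, 556.9 and 550.1 in control, 814.5, 737.3 and 885.5 at day 7, and 3005, 2673 and 2400 at day 14. The groups followed each other without overlap, and the same held for each of those 6 probe sets. The rise over control was 1.43-fold at day 7 (log2 change 0.52, SE 0.10, adjusted p 0.026) and 4.73-fold at day 14 (log2 change 2.24, SE 0.10, adjusted p 2.8e-06). Day 14 was 3.31-fold above day 7 (adjusted p 2.8e-05). Over the 6 probe sets, log2 changes ran from 0.47 to 0.67 at day 7 and from 1.30 to 2.41 at day 14. Of the 6, 1422264_s_at (2.40 at day 14) carries a suffix for probes that can bind other transcripts.

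A pair of Klf9 probe sets were dim. On 1452723_at the control arrays read 8.02 to 9.75 and the day 7 arrays 11.1 to 12.6, below the 40th percentile of every one of those arrays, so day 14 is at least 1.37-fold above control and no change between control and day 7 is given. It was tested only because its day 14 arrays were brighter. On 1436952_at the arrays read 17.5 to 22.3 in control, 27.2 to 28.3 at day 7 and 46.6 to 54.0 at day 14, a 2.47-fold rise. The readings of the 7 Klf9 probe sets, 1452723_at among them, correlated with r of 0.953 to 0.999 over the 9 arrays. That probe set was kept through its day 14 arrays, and a shared day 14 rise easily gives a high r. The values are therefore a description only.

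Klf13, which regulates chemokine and cell survival genes in lymphocytes, rose on 2 of 3 probe sets at both times. The brightest, 1436316_at, read 398.7, 355.8 and 383.7 in control, 496.8, 456.9 and 489.6 at day 7, and 1166, 1116 and 1028 at day 14. The groups did not overlap, with rises over control of 1.27-fold at day 7 (log2 change 0.34, SE 0.08, adjusted p 0.042) and 2.91-fold at day 14 (log2 change 1.54, SE 0.08, adjusted p 3.3e-06). Probe set 1432543_a_at rose by 0.47 and 1.77. The day 7 calls of both probe sets were lost without the filter, in fits of just the 2 groups, and without any single day 7 array. They were also lost without control replicate 2, control replicate 3 or day 14 replicate 2. The call of 1436316_at was lost, too, at the same 75th percentile (0.33), with the replicate number in the fit and without control replicate 1. That of 1432543_a_at was lost without day 14 replicate 3. The dim probe set 1456030_at read 14.97 to 19.6 in control and 19.1 to 22.1 at day 14, and its change of 0.22 did not pass (95% interval -0.01 to 0.45). Its interval lies below those of the other 2, whose lower ends were 1.37 and 1.56.

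Klf10, also named TGF-beta-inducible early gene 1, read 375.6, 382.8 and 307.3 in control, 512.7, 422.9 and 419.0 at day 7 and 1129, 1028 and 943.2 at day 14. All day 7 arrays lay above all controls, a 1.27-fold difference that did not pass (adjusted p 0.12). Day 14 was 2.92-fold above control (log2 change 1.54, SE 0.11, adjusted p 2.2e-05) and 2.29-fold above day 7 (adjusted p 7.6e-05).

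Klf3 represses through CtBP and is itself switched on by Klf1 in red cell precursors. On its brightest probe set, 1454666_at, the arrays read 447.9, 425.3 and 431.4 in control, 314.8, 361.9 and 396.5 at day 7, and 287.3, 287.0 and 290.7 at day 14. The groups stepped down without overlap, and day 14 was 1.51-fold below control (log2 change -0.59, SE 0.08, adjusted p 0.00053). Its log2 difference between day 14 and day 7 was -0.30 (adjusted p 0.016), which lost its call with both other scalings and without day 7 replicate 2 or day 7 replicate 3, where it was -0.29 and -0.23; under the other scalings it was -0.22 (quantile) and -0.17 (75th percentile). Of the other 6 Klf3 probe sets, 1429360_at (-0.33) and 1442920_at (-0.31) fell at day 14 and 4 did not pass. Of these, 1442920_at was dim, at 18.3 to 24.3 in control and 16.7 to 17.95 at day 14.

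The Klf3 probe sets did not move together. Probe set 1431630_a_at read 95, 88.04 and 83.14 in control and 90.0, 88.0 and 88.0 at day 14, a change of 0.00 with a 95% interval of -0.20 to 0.21. It is 1 of 3 member probe sets that hold exactly equal values in 2 arrays. The pairwise correlation between Klf3 probe sets over the 9 arrays ran from -0.13 to 0.92. Among them 1442920_at and 1458487_at were dim, the latter at 15.7 to 18.5 in control and 14.6 to 20.25 at day 14. Their part in the low correlations was not tested. The call for 1429360_at was lost with both other scalings and when control replicate 1, or either of day 14 replicates 1 and 2, was left out, at -0.32 to -0.28. That for 1442920_at was lost at the same 75th percentile (-0.19) and without 6 of the 9 arrays: control replicate 1, control replicate 3, day 7 replicate 2 and each day 14 replicate. Without the filter on dim probe sets the calls for 1429360_at and 1442920_at were lost. That for 1442920_at was also lost with an offset of 32 and in fits of just the 2 groups.

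**Figure D3:**
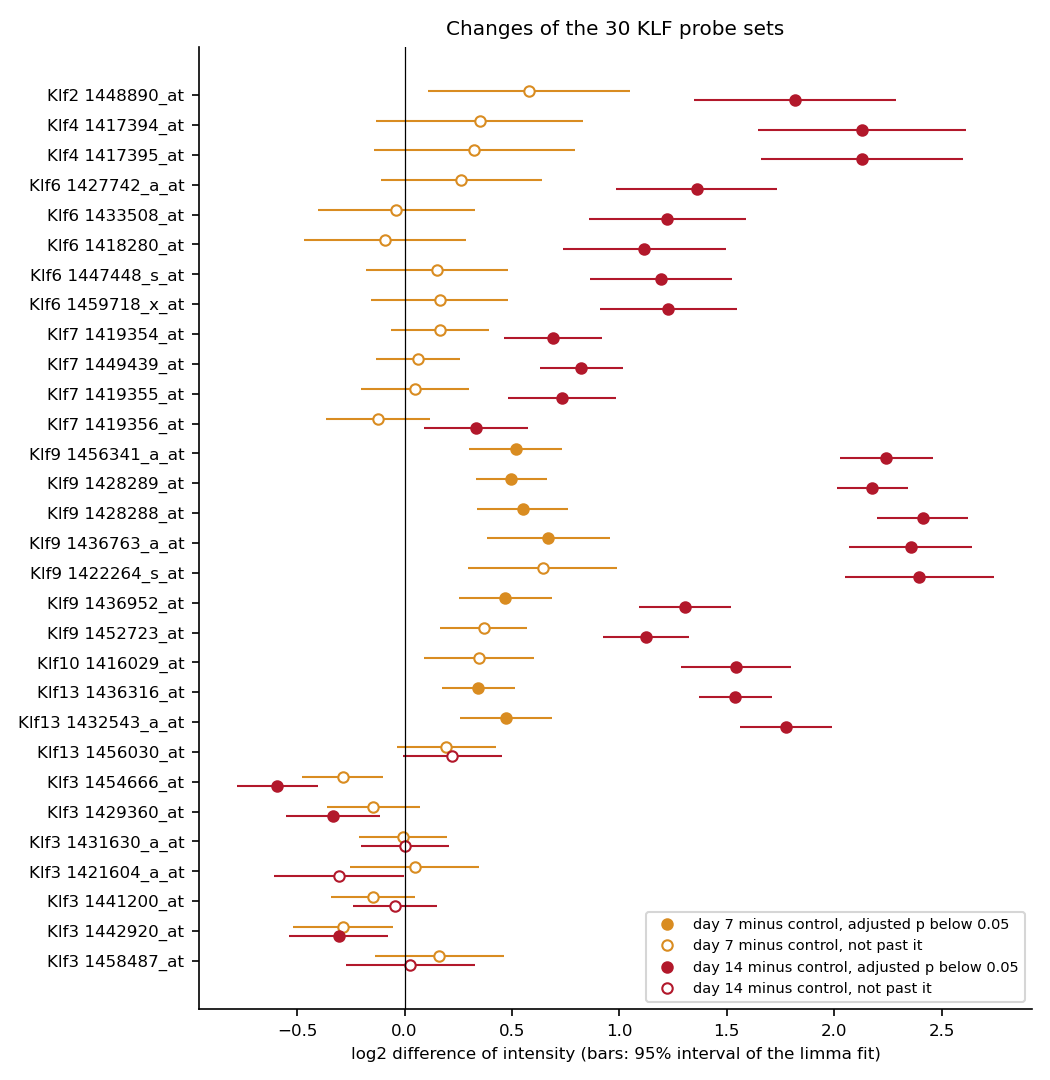
Log2 difference from control at day 7 (orange) and day 14 (red) for each of the 30 KLF probe sets, with the 95% interval of the limma fit; filled points have an adjusted p below 0.05. At day 14, 22 filled points lie to the right of 0 and 3, of Klf3, to the left; at day 7 the 7 filled points belong to Klf9 and Klf13. The points of Klf9 1452723_at are fitted values against arrays below the 40th percentile.

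At day 7, 7 of the 30 probe sets rose, 5 of Klf9 and 2 of Klf13, where 1.9% of all probe sets tested rose and 1.49% fell. Beside them, 1 mast cell and basophil marker, Mcpt8 (from 102.4 to 206.5), and 1 megakaryocyte marker, Gp1bb (0.52, from 22.6 to 32.2), rose at day 7; their part in the result was not tested. With limma 0 of 30 fell, 23 did not pass, and 11 higher and 2 lower had an unadjusted p below 0.05. The median of the 30 was 0.18, against 0.00 over all probe sets tested. The count rested on the arrays and on the filter: leaving out control replicate 2 gave 4, and leaving out control replicate 3, day 7 replicate 1 or day 7 replicate 2 gave 1 each. Leaving out day 7 replicate 3 gave 0 (limma). In that last fit 12 of the 30 had an unadjusted p below 0.05. In 11 probe sets the day 7 arrays lay above all controls, where 14.3% of all probe sets did so, and in 1 below them, against 13.6%. Without the Klf9 probe set above the 40th percentile only at day 14, the 11 became 10 of 29.

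Day 14 against day 7 tests whether the change from control differed between the stages. Of 30 probe sets 22 were higher at day 14, 1 lower and 7 did not pass, where 16.5% and 25.7% of all probe sets were called higher and lower, 42.2% in all. The day 14 arrays lay above all day 7 arrays for 22 and below them for 2, against 22.6% and 31.6% of all. Without the Klf9 probe set above the 40th percentile only at day 14, 21 of 29 were called higher. The 22 are of the 7 genes that rose against control. The largest differences were those of Klf9 (up to 1.86) and Klf4 (1.78 and 1.80, SE 0.22 and 0.21). The comparisons share their day 14 or control arrays and are not independent. An ascending order of the 3 groups without overlap was found in 11 of 30 probe sets, 7 of Klf9, 2 of Klf13, and those of Klf2 and Klf10, and in 2.58% of all probe sets tested. Without the same Klf9 probe set it was 10 of 29. A descending order was found in 1, Klf3 1454666_at, and in 3.13% of all. For Klf4 and Klf6, control and day 7 did not differ beyond their spread.

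Single arrays stood out in the same way for several members. In control, replicate 2 was the lowest array for 17 of the 30 probe sets, against 32.8% of all probe sets tested. Replicate 1 was the highest control array for 20 of 30 (29% of all). At day 7, replicate 3 was the highest array for 26 of 30 KLF probe sets (31.7% of all) and replicate 1 the lowest for 19 of 30 (34.2%). At day 14, replicate 3 was the lowest for 19 of 30 (28.5%). Of 21 immediate-early genes, which cells switch on within minutes of a signal, 17 were lowest in control replicate 2 and 11 highest in replicate 1. At day 7, 16 of them were lowest in replicate 1 and 14 highest in replicate 3. At day 14, 13 were lowest in replicate 3. Probe sets of a gene are not independent, so the brightest probe set of each of the 8 genes was also counted. Control replicate 2 was then lowest for 5 of 8, and control replicate 1 highest for 5 of 8. Day 7 replicate 3 was highest for 6 and day 14 replicate 3 lowest for 7. Day 7 replicate 1 was lowest for just 3 of 8, and day 7 replicate 2 for 4, so by gene day 7 replicate 1 did not stand out. The count of KLF probe sets called at day 14 against control stayed between 21 and 26 with any 1 array left out.

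**Figure D4:**
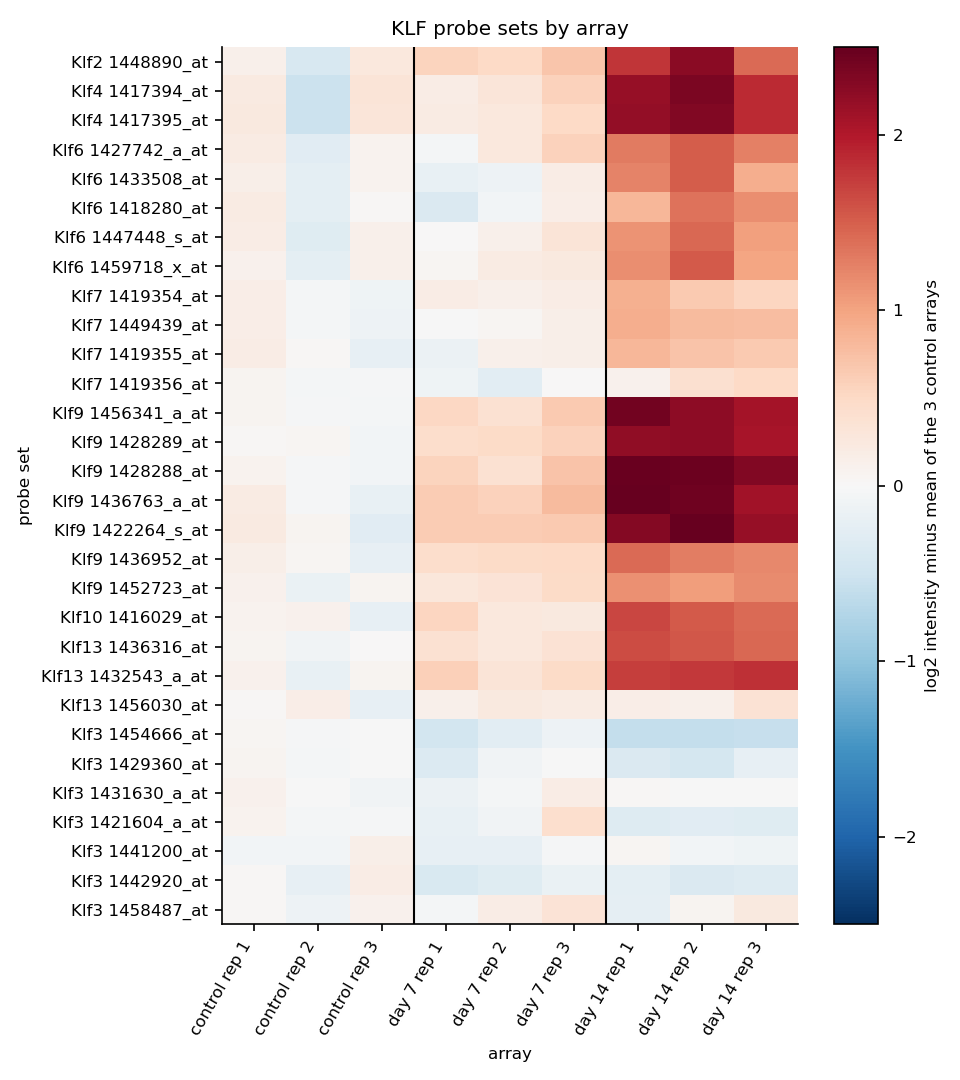
Log2 intensity of the 30 KLF probe sets (rows) in the 9 arrays (columns), as the difference from the mean of the 3 control arrays; red is higher and blue lower, and lines part the groups. The day 14 columns are red for Klf2, Klf4, Klf6, Klf9, Klf10 and 2 Klf13 probe sets. The red is deepest, on average, for Klf4 and most Klf9 probe sets. The day 14 columns of Klf7 and Klf3 are pale, and control replicate 2 is blue for Klf2, Klf4 and Klf6.

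Other genes of the family and its surroundings were read on the brightest probe set of each gene, where 48.6% of 12652 genes were called at day 14 against control, 16.6% higher and 32.1% lower. At day 7 against control 2.71% were called, 1.81% higher and 0.901% lower, and for day 14 against day 7 47.6%, 15.7% higher and 31.9% lower. Of 18 other KLF and SP genes 11 were tested; 4 rose at day 14 and 7 did not pass, with a median of 0.18. Klf11, the closest relative of Klf10, rose from 289.1 to 759.0 (log2 change 1.42). The others were Sp4 (0.44) and the dim Klf5 (0.42, from 20.2 to 26.7) and Klf14 (0.19, from 20.7 to 23.6). Whether calls of listed genes that are not members hold under other scalings was not tested. Klf1, the activator of red cell genes and of Klf3, went from 78.6 (SD 66.3) to 35.8 (SD 8.11) without passing (-0.84, adjusted p 0.14). Klf5 was the only one of the 11 to rise at day 7 (0.61).

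Of 13 cofactors, 4 rose and 6 fell at day 14. The acetyltransferases Crebbp (0.37), Ep300 (0.33) and Kat2b (0.29) rose. Hdac1 (-0.53), Sin3a (-0.49) and Kat2a (-0.46) fell, the first 2 being parts of the SIN3 complex that Klf9, Klf10 and Klf13 recruit. Sin3b, the other SIN3 gene listed, was at 0.006 and did not pass. Ctbp1 and Ctbp2, the corepressors bound by Klf3, changed by 0.04 and -0.15 and did not pass. In the ERK5 and MEF2 pathway, which switches on Klf2 and Klf4, 4 of 8 genes rose and 1 fell: Mef2d rose by 0.60, from 825.7 to 1255, Map3k3 by 0.38 and Mef2c by 0.29, while Map3k2 was at -0.25. Mapk7, which encodes ERK5 itself, was at -0.17 and did not pass. Of 9 tested ubiquitin ligases that act on KLF proteins, 3 rose (Vhl 0.27, Siah1a 0.27, Itch 0.23), 1 fell (Wwp1 -0.24) and 5 did not pass.

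Genes that answer to the same signals as the members were also listed. Of 21 immediate-early genes, 19 rose at day 14 and 2 did not pass, led by Egr3 (4.01), Nr4a3 (3.46) and Maff (2.47), with a list median of 0.65 against -0.06 over all genes tested. Of 11 glucocorticoid-response genes, 6 rose and 5 did not pass: Zbtb16 (1.87), Tsc22d3 (1.47) and Per1 (1.03) had the largest rises, and Fkbp5, another hormone target, picked out with its value known, had a change of -0.07. Of 11 tested TGF-beta pathway genes, 7 rose and 1 fell: Skil rose by 2.52, Smad7 by 1.47 and Ski by 0.75, and Smad6 fell by 0.57. At day 7, 4 immediate-early genes rose, Nr4a3 (1.65), Egr3 (1.55), Maff (0.96) and Fosl2, as did 1 gene each of the glucocorticoid and TGF-beta lists, Zbtb16 (0.56) and Skil (0.57). Of 7 tested genes known as Klf2 or Klf4 targets, Cdkn1a (1.25) and the migration receptor gene S1pr1 (0.80, from 112.8 to 195.9) rose at day 14, Ccr7 fell and lay below the 40th percentile in every day 14 array, and 4 did not pass. At day 7 Cdkn1a rose (0.69) and Ccr7 fell (-0.41), and 5 of the 7 did not pass.

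The genes most like each member were taken by Pearson correlation of log2 values over the 9 arrays, among 11979 named genes with signal. The day 14 arrays lie apart from the others for many genes, so high correlations are easily reached and are given as a description only. Klf9 and Klf13 were each other's nearest gene, with r = 0.998, and Skil was next for Klf13 (r = 0.998). Tsc22d2 was next for Klf9 (r = 0.995) and for Klf10 (r = 0.995), whose nearest was Rap1b (r = 0.995). The nicotinic acid receptor gene Hcar2 was near both Klf4 (r = 0.991) and Klf6 (r = 0.989); Nfkbiz, an NF-kB cofactor, was next to Klf4 (r = 0.991) and Rgs2, a brake on G protein signals, nearest to Klf6 (r = 0.992). Ppm1l (r = 0.981) and Cpeb2 (r = 0.978) were nearest to Klf2, Sdc2 (r = 0.992) and Zbtb10 (r = 0.983) to Klf7, and Sema4b (r = 0.981) and Hcls1 (r = 0.969) to Klf3.

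Markers of other cell types moved in part. Each list is also given as a summed intensity, in which the brightest probe sets weigh most, so that a sum can hide opposite changes. Of 7 endothelial markers, Cdh5 lay below the 40th percentile in all 9 arrays, Vwf and Kdr rose and Emcn fell at day 14, and the summed intensity was 632 to 666 in control, 588 to 668 at day 7 and 638 to 687 at day 14. Of 5 measured monocyte and macrophage markers, 3 rose and Cd68 fell at day 14, with sums of 1656 to 2139 in control, 1698 to 2097 at day 7 and 2322 to 2960 at day 14. The 6 megakaryocyte markers summed to 531 to 645, 691 to 749 and 1353 to 1560, with 4 higher at day 14, and the 5 mast cell and basophil markers to 1002 to 1241, 1153 to 1229 and 1684 to 1829, with 2 higher. The 5 stromal markers summed to 814 to 863, 712 to 768 and 1408 to 1583, and Pdgfrb and Col1a2 rose at day 14. Of the 5 measured neutrophil markers 2 fell, S100a8 and S100a9, with sums of 111 to 133, 114 to 157 and 76.1 to 111. Of the 4 tested B cell markers, Ebf1 and Cd79a rose at day 14 and Cd79b fell. Ebf1 lay above the 40th percentile in the day 14 arrays alone and was tested only through them. Cd79a lay below it in every control array. Of the 3 tested T and NK cell markers, Cd3e (0.45) and Cd8a (0.37) rose. B cell markers summed to 189.7 to 200, 194 to 212 and 168 to 187, T and NK cell markers to 75.2 to 84.3, 79.5 to 87.8 and 97.9 to 107.2, and erythroid markers to 97.5 to 135, 106 to 112 and 116 to 134. Ms4a1, Cd3g, Ncr1, Hba-a1, Alas2, Slc4a1, Col1a1 and Fcer1a lay below the 40th percentile in all 9 arrays. Their part in the KLF changes was not tested.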

How the data were processed

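The 9 arrays were placed in 3 groups by their labels (control, day 7, day 14; n = 3). The intensity values are the authors' deposited, normalized signals, 1 per probe set and array; the series' own design notes give an RNA amplification of 2 cycles and normalization by Microarray Analysis Software 5.0. Such amplification shortens transcripts from their 5′ end, and probe sets far from the 3′ end can lose signal. In these values 51.64% of probe sets hold equal values in at least 2 arrays, which that software alone need not give, so scaling was varied. The number of arrays limits the precision.

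Values ran from 1.61 to 13900; those below the table's 20th percentile (5.81) were raised to it and log2 was taken. Tests were run on probe sets with values over the array's 40th percentile (14.1 to 15.2) in at least 3 arrays, which kept 27665 of 45037. Each probe set was tested on its own with limma 3.58.1 in R 4.3.3, in 1 model over all 9 arrays without covariates, with moderated two-sided tests and an F-test over the groups. Benjamini-Hochberg adjustment ran over all probe sets tested, and a call is an adjusted p below 0.05. Where a whole group of a member probe set lay under that percentile, a lower bound is given. It sets the brighter group's mean against, per array of the dimmer group, the higher of the percentile and its value. For a listed gene or marker in that position, the call is given without a bound. Names came from the platform annotation (34945 probe sets with 1 symbol, 932 with several, 9160 with none), used for 1 symbol alone. The brightest probe set, by mean log2 value, stood for a listed gene, with its adjusted p over all probe sets.

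The members, gene lists and markers were chosen with earlier results of these data known, and the motifs with the sequences in view. The rule for naming took all members and, for each list, direction and comparison, up to 3 called genes with the largest changes. It also took the 2 genes most like each member, predicted genes left out. Beyond that rule, the text names 4 risen KLF and SP relatives at day 14 and 4 immediate-early genes at day 7. Klf1, Sin3b, Ctbp1, Ctbp2, Mapk7 and Fkbp5 are named though not called, and markers are named as well. Between day 14 and day 7 no listed genes are named. Tested on data simulated for the 27665 probe sets in day 7 against control, the fit recovered 0%, 58%, 90% and 98% of log2 changes of 0.25, 0.5, 1 and 2. Alternatives were quantile normalization, an equal 75th percentile, no floor, an offset of 32, no filter or the 60th percentile, 1 probe set a gene, a replicate block, fits of just the 2 groups at hand, array weights, a trended robust prior and each array left out. Promoter windows came from RefSeq, GRCm38.p6, and were searched in Python 3.11.15.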

Additional observations from a re-analysis of the deposited data

Results flagged for a closer look

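The change from control differed between the stages for 23 KLF probe sets, by the test of day 14 against day 7 (limma, adjusted p below 0.05); each value is a log2 difference, day 14 minus day 7. For Klf2 it was 1.24 on 1448890_at. For Klf3 it was -0.30 on 1454666_at. For Klf4 it was 1.78 on 1417394_at and 1.80 on 1417395_at. For Klf6 it was 1.21 on 1418280_at, 1.09 on 1427742_a_at, 1.26 on 1433508_at, 1.04 on 1447448_s_at and 1.06 on 1459718_x_at. For Klf7 it was 0.53 on 1419354_at, 0.68 on 1419355_at, 0.46 on 1419356_at and 0.76 on 1449439_at. For Klf9 it was 1.75 on 1422264_s_at, 1.86 on 1428288_at, 1.68 on 1428289_at, 1.69 on 1436763_a_at, 0.83 on 1436952_at and 1.73 on 1456341_a_at. On the Klf9 probe set 1452723_at the fitted value was 0.76, but its day 7 arrays all lay below the 40th percentile, so day 14 is only bounded there, at least 1.39-fold higher. For Klf10 it was 1.20 on 1416029_at. For Klf13 it was 1.30 on 1432543_a_at and 1.20 on 1436316_at. Of these, the negative value of Klf3 lost its call with both other scalings.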

How the results depend on the processing

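With 1 probe set a gene, where 8 members remain by construction, 2 were called at day 7, 8 at day 14 against control, 8 between the days and 8 in the F-test, against 7, 25, 23 and 24 of 30. The other settings left the 3 latter counts within 1.5 times. At day 7 the 7 became 0 without the filter (12 with an unadjusted p below 0.05), 11 with array weights and 3 in fits of just the 2 groups, and ran from 0 to 7 with single arrays left out. With an array left out the other counts ran from 21 to 26, from 22 to 25 and, in the F-test, from 21 to 26. Over all probe sets 938 calls at day 7 became 32 without the filter, 458 with the replicate block, 378 in fits of just the 2 groups, 1429 with the offset, 1659 with the trended robust prior, 3012 with array weights, and as few as 137 without day 7 replicate 1. An equal 75th percentile moved the median change of all probe sets at day 14 against control from -0.04 to 0.08 and the share of calls that were higher from 38.2% to 61.6%; quantile normalization gave 48.3%. For day 14 against day 7 that share was 39.2%, and 64.1% and 49.1%. The replicate numbers do not pair the samples: deviations of same-numbered arrays correlated at -0.13 to 0.11, and with the replicate block 5, 25 and 23 KLF probe sets were called. Signs turned for these members, all of them not called; the cause was not tested. At day 7 against control: Klf3 1421604_a_at -0.0532 with array weights, -0.139 to 0.168 leaving out arrays; Klf3 1431630_a_at -0.103 to 0.0634 leaving out arrays; Klf6 1418280_at -0.216 to 0.0413 leaving out arrays; Klf6 1433508_at -0.156 to 0.0384 leaving out arrays; Klf7 1419355_at -0.0277 with array weights, -0.0529 to 0.143 leaving out arrays; Klf7 1449439_at -0.0409 with array weights. At day 14 against control: Klf3 1431630_a_at -0.0605 with array weights, -0.045 to 0.0512 leaving out arrays; Klf3 1441200_at 0.0312 with quantile normalization, 0.075 with the same 75th percentile, -0.0912 to 0.0264 leaving out arrays; Klf3 1458487_at -0.0165 with quantile normalization, -0.0813 to 0.155 leaving out arrays. Between day 14 and day 7: Klf13 1456030_at -0.0189 with quantile normalization, -0.0394 to 0.0686 leaving out arrays; Klf3 1431630_a_at -0.0626 to 0.104 leaving out arrays; Klf3 1442920_at 0.112 with the same 75th percentile, -0.0693 to 0.0394 leaving out arrays.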
